A study of Mus musculus with 5 samples.

Results

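The 10 genes described here encode the guanylin hormone system and the epithelial ion exchangers and channels of the small intestine. They were chosen by name: the hormones Guca2a and Guca2b, their receptor Gucy2c, the chloride channel Cftr, the exchangers Slc26a3, Slc26a6 and Slc9a3, the cotransporters Slc12a2 and Slc4a4, and the carbonic anhydrase Car4. All 10 had a row among the 22869 gene symbols of the count table, and 9 passed the filter on low counts, as did 14572 genes in all. For a gene with several transcript rows, the one with the most reads on average was used.

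The libraries hold RNA of intervillus cells cut by laser from sections of proximal jejunum, taken from mice on postnatal day 0. The intervillus epithelium is the proliferating layer between the villi. There were 3 control libraries, 1, 2 and 3, of genotype Dnmt1 L/+, heterozygous for a floxed allele of the maintenance DNA methyltransferase gene. There were 2 mutant libraries, 4 and 6, of genotype Dnmt1 L/L; VillinCre, homozygous for the floxed allele, with a Cre recombinase driven by villin regulatory sequence, which is active in gut epithelium. The control label names no Cre. Ki67-negative areas were captured from mutants and Ki67-positive areas from littermate controls, so Dnmt1 loss and the choice of nonproliferating areas cannot be told apart in any comparison below. The labels do not say that each library came from a separate animal, so the spread that the p-values rest on is that between libraries and may be technical.

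Guanylin, encoded by Guca2a, and uroguanylin, encoded by Guca2b, are peptide hormones released by intestinal epithelial cells into the lumen. They bind guanylate cyclase C, encoded by Gucy2c, on the apical membrane, and the cyclic GMP made there acts through the kinase encoded by Prkg2. This signal opens the CFTR chloride channel and inhibits the sodium/proton exchanger NHE3, encoded by Slc9a3, so that salt and water stay in the lumen. Chloride for secretion enters the cell from the blood side through the cotransporter encoded by Slc12a2, and bicarbonate through that encoded by Slc4a4. The apical exchangers encoded by Slc26a3 and Slc26a6 trade chloride for bicarbonate or other anions.

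Both hormone genes rose in the mutants while their receptor did not pass the test, and the apical anion exchanger Slc26a3 and the bicarbonate cotransporter Slc4a4 fell. Of the 9 genes tested, 2 rose, 2 fell and 5 did not pass the quasi-likelihood test of edgeR with Benjamini-Hochberg adjustment over all rows (adjusted p under 0.05). Over all 14572 genes tested, 10.3% were called, 6.11% as higher and 4.17% as lower. Before adjustment, 2 were higher and 3 lower at p under 0.05, beside 25.6% of all genes in either direction. The median log2 fold change, mutant over control, was -0.25 over the 9 genes and -0.0072 over all genes tested. It was -0.23 over the 14 epithelial marker genes given below, close to that of the 9 genes. The 4 calls were not equally stable: without mutant 4 none of the 4 passed, and the fall of Slc4a4 was lost under most other settings tried, as given below for each gene.

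The sequences just upstream of the genes whose calls were most stable, and of Cftr for contrast, are shown because Dnmt1 maintains methylation at CpG dinucleotides and these genes differ in how many they carry. They are from RefSeq, assembly GRCm38.p6, run 5′ to 3′ on the gene's strand, and stop short of the first annotated exon. Capitals mark CpG.
Guca2a, chr4:119637482-119637703, plus strand: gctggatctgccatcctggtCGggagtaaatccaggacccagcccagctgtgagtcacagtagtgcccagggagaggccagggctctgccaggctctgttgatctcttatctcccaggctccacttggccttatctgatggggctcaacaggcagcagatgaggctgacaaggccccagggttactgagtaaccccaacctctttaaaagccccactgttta
Guca2b, chr4:119658955-119659195, minus strand: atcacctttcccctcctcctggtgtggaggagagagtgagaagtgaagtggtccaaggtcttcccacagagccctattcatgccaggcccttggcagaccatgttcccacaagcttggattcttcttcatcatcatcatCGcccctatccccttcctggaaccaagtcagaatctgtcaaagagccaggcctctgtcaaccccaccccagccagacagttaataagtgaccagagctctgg
Slc26a3, chr12:31437969-31438216, plus strand: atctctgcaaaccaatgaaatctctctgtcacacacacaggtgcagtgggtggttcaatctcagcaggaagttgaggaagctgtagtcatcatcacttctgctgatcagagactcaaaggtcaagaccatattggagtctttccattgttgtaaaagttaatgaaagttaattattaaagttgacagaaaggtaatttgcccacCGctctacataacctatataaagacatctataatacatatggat
Cftr, chr6:18170437-18170686, plus strand: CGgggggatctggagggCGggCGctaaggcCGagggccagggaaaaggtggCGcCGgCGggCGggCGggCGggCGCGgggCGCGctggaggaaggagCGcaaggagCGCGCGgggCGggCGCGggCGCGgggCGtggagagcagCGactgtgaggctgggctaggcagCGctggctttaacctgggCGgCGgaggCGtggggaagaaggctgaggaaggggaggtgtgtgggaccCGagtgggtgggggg
In the 250 bases before the RefSeq start, Guca2a, Guca2b and Slc26a3 held 1 CpG each, and Cftr held 30. Over 32841 such windows of the mouse promoter table the median was 6 CpG, 18.8% of windows held 1 or none, and 5.9% held 30 or more. Guca2a and Guca2b rose, Slc26a3 fell and Cftr did not pass. Methylation itself was not measured in these samples, and a link between CpG number and the calls was not tested. The other windows matched held 9 CpG for Slc26a6, 19 for Slc9a3 and 11 for Car4. Slc4a4 has a pair of start sites in the table, with 44 CpG at the one nearer the start of the deposited transcript and 3 at the other. In all, 8 of the 10 genes had an entry.

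Short motifs of intestinal transcription factors were searched on both strands of these windows. AGATAA, which GATA factors recognise, occurred 2 times before Guca2a and in 9.99% of all windows. GTTAAT, part of the site of HNF1 factors, occurred 1 time before Guca2b, 2 times before Slc26a3 and in 6.4% of all windows. TATAAA, the core promoter box of that name, occurred 1 time before Slc26a3 and in 12.4% of all windows. TTTATG, a CDX2 motif, was in 10.8% of all windows and in none of the windows of the 8 genes. No 2 of these matches overlapped, and a match is a description of the letters, not of binding.

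Dnmt1 had 1351 to 2240 counts per control library and 427 and 525 in the mutant ones, and Mki67, the Ki67 gene, 10984 to 17268 and 5772 and 6562. After scaling for depth, the mutant level was 0.34 times the control level for Dnmt1 and 0.56 times for Mki67. Mki67 transcripts thus remained in the libraries of Ki67-negative areas. Libraries held 8730268 to 13356901 reads counted with 1 row per gene, and the 10 genes together took 16776 to 27857 of the reads. Xist counts were 42 to 72 in controls and 10179 and 8277 in mutants, and each of the Y-linked genes Ddx3y, Eif2s3y, Kdm5d and Uty had 448 to 972 counts in controls and 0 to 2 in mutants, so the groups also differ in sex-linked transcripts. That difference and the genotype cannot be told apart either. Levels below are CPM, counts scaled to the library's total over all tested transcript rows, after TMM normalization (edgeR's trimmed mean of M-values), unless FPKM is named. In bulk samples, fewer cells of a type and less RNA per cell cannot be told apart. Epithelial markers were present in every library: the 14 listed genes, Epcam, Cdh1, Vil1 and Cdx2 among them, summed to 6353 to 6700 CPM in controls and 6008 and 6088 CPM in mutants, with none at 0. Both mutant sums lay below every control sum. Both mutants lay below all controls for 7 of the 14 and above them for 2, beside 21.8% and 21.7% of all genes tested. At an unadjusted edgeR p under 0.05, 5 were lower and 2 higher, beside 25.6% of all genes in either direction. Of the 14, Cldn4 and Krt18 rose, by 1.88 and 0.79 log2 units (edgeR adjusted p = 0.00072 and 0.00255), and Cdx2 fell by 0.94 (0.00454). Without mutant 4 the rises numbered 1, and without control 3 the falls numbered 3.

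Guca2a, the guanylin gene, had 764, 1027 and 1107 counts in controls 1, 2 and 3 and 1311 and 1459 counts in mutants 4 and 6. Its level was 42.1, 60.8 and 77.9 CPM in the controls and 116 and 113 CPM in the mutants. Both mutants lay above every control, and control 1 was the lowest library. The rise was 1.90-fold, from 60.3 ± 17.9 CPM (SD, n = 3) to 114 ± 2.41 CPM (SD, n = 2), or 0.93 ± 0.20 log2 units (SE; edgeR adjusted p = 0.00844). Without mutant 4 the log2 fold change was 0.90 and the edgeR adjusted p 0.0596.

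Guca2b, the uroguanylin gene, gave 2375, 3405 and 3185 reads from controls 1 to 3, and 3905 and 4404 reads from mutants 4 and 6. The controls stood at 131, 202 and 224 CPM and the mutants at 345 and 340 CPM. There was again no overlap, and control 1 was again lowest. Its mean went from 186 ± 48.8 CPM (SD, n = 3) to 343 ± 3.99 CPM (SD, n = 2), which is 0.89 ± 0.18 on the log2 scale (SE; edgeR adjusted p = 0.00788). It also missed the threshold without mutant 4 (edgeR adjusted p = 0.0573) and on the deposited FPKM (limma adjusted p = 0.0508 to 0.0644 under 3 settings). Both mutants lay above all controls in 21.7% of all genes tested and below them in 21.8%. The pair also moved alike within the control group, where both hormone genes were lowest in control 1 and highest in control 3.

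Gucy2c, the receptor gene, differed little between the groups. It was 247, 259 and 230 CPM in the controls and 222 and 244 CPM in the mutants, and the groups overlapped. The log2 fold change was -0.07 ± 0.13 (SE) with a 95% interval of -0.35 to 0.20 (edgeR adjusted p = 0.769). A change of the size seen in the hormone genes lay outside that interval.

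The balance of ligand to receptor transcripts was therefore computed within each library, on the deposited FPKM, which are scaled to transcript length. Guca2a and Guca2b together were 4.82, 7.32 and 9.09 times the Gucy2c FPKM in the controls and 13.9 and 13.2 times in the mutants. The mean ratio was 7.08 ± 2.14 for controls (SD, n = 3) against 13.6 ± 0.506 for mutants (SD, n = 2; exact permutation test, two-sided p = 0.1, adjusted over 6 ratios p = 0.3). With 10 ways to split these libraries, 0.1 is the smallest p that the test can give. Uroguanylin over guanylin, by contrast, overlapped between the groups, at 2.93 to 3.39 in controls and 2.59 and 3.36 in mutants.

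**Figure D1:**
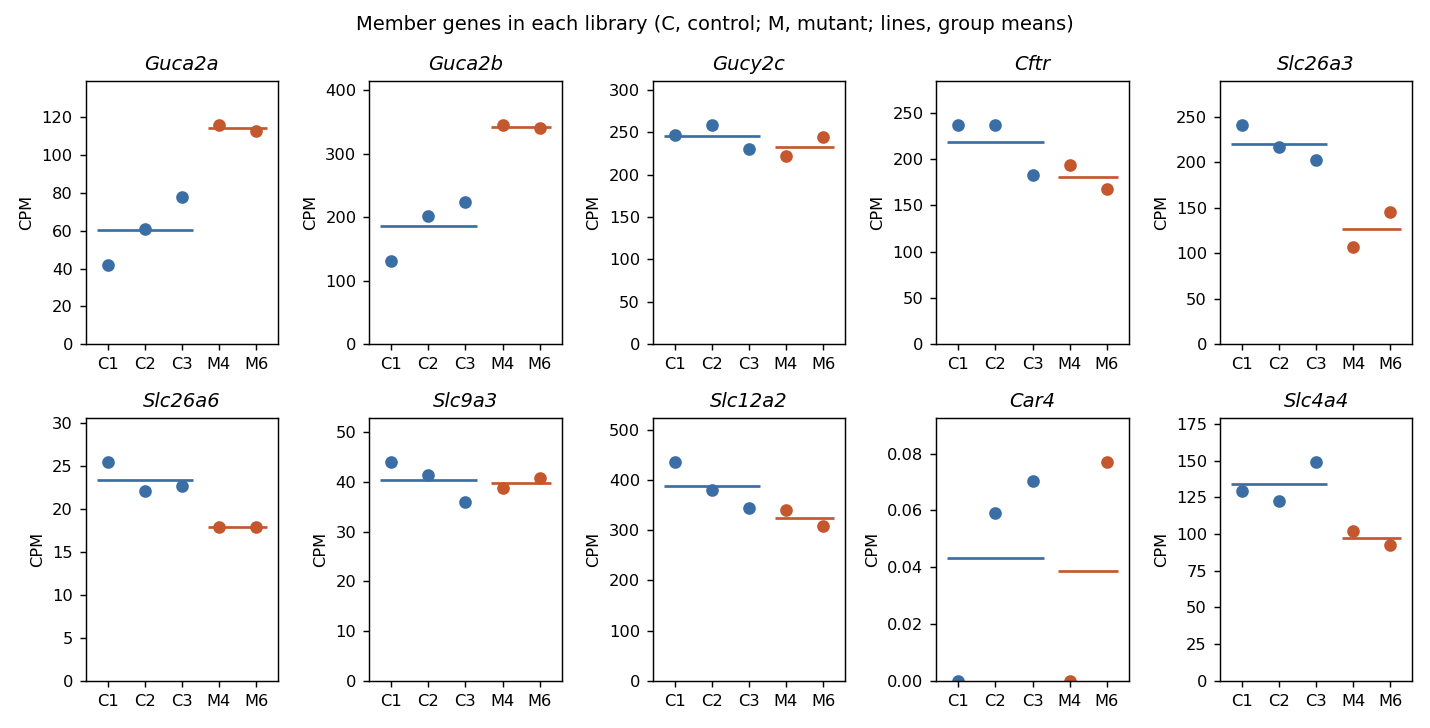
CPM of the 10 genes (y axes, each from 0) in control libraries 1 to 3 (C1 to C3) and mutant libraries 4 and 6 (M4, M6), with 1 point per library and lines at the group means. The mutants lie above all controls for Guca2a and Guca2b, below them for Slc26a3, Slc26a6, Slc12a2 and Slc4a4, and overlap them for Gucy2c, Cftr and Slc9a3. Car4 rests on 0 or 1 counts per library.

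Cftr, the apical chloride channel of secreting cells, was 237, 237 and 183 CPM in the controls and 194 and 167 CPM in the mutants. Control 3 lay between the mutants, so the groups overlapped, and the log2 fold change of -0.28 ± 0.15 (SE; 95% interval -0.60 to 0.05) did not pass (edgeR adjusted p = 0.262). An antisense gene, Gm15592, overlaps Cftr exons in the annotation, and since the counting is not stated to use strand their reads cannot be told apart.

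Slc12a2, the basolateral cotransporter that loads secreting cells with chloride, was 437, 381 and 345 CPM in the controls and 340 and 309 CPM in the mutants. Both mutants lay just below the lowest control in CPM, but on FPKM the groups overlapped, at 43.6 to 67.9 in controls and 44.5 and 41.6 in mutants. The log2 fold change was -0.25 ± 0.14 (SE; 95% interval -0.56 to 0.05; edgeR adjusted p = 0.272). The ratio of Slc12a2 to Cftr FPKM was 1.57 to 1.81 in controls and 1.61 and 1.65 in mutants, so the groups overlapped in this ratio.

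Slc4a4, which brings bicarbonate in across the basolateral membrane, was 130, 123 and 149 CPM in the controls and 102 and 92.4 CPM in the mutants. The groups did not overlap. It fell from 134 ± 13.8 CPM (SD, n = 3) to 97.2 ± 6.76 CPM (SD, n = 2), which is -0.46 ± 0.14 on the log2 scale (SE; edgeR adjusted p = 0.0471). All 3 of its transcript rows, which repeat nearly the same reads, passed (edgeR adjusted p = 0.0447 to 0.0473). The call held in only 3 of 14 other settings. It was lost without control 1 (edgeR adjusted p = 0.105), control 3 (0.0952), mutant 4 (0.171) or mutant 6 (0.297).

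Slc26a3, the chloride/bicarbonate exchanger whose loss in humans causes congenital chloride diarrhoea, showed the largest fall of the 9 tested. It gave 4381, 3658 and 2884 reads from controls 1 to 3, and 1212 and 1882 reads from mutants 4 and 6. The controls stood at 241, 216 and 203 CPM and the mutants at 107 and 145 CPM, with mutant 4 the lowest and no overlap. The mean fell from 220 ± 19.3 CPM (SD, n = 3) to 126 ± 26.9 CPM (SD, n = 2), which is -0.80 ± 0.15 on the log2 scale (SE; edgeR adjusted p = 0.00501). Without mutant 4 the log2 fold change was -0.60 and no longer passed (edgeR adjusted p = 0.12), nor did it on FPKM with a mean of at least 1 (limma adjusted p = 0.0605).

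Slc26a6, a second apical anion exchanger of the same family, was lower in level and had the same sign. It was 25.5, 22.1 and 22.7 CPM in the controls and 18.0 and 18.0 CPM in the mutants, so both mutants lay below all controls. The log2 fold change of -0.38 ± 0.18 (SE; 95% interval -0.76 to -0.0054) did not pass after adjustment (edgeR adjusted p = 0.188). Slc9a3, the proton exchanger that guanylin signalling inhibits, was 44.0, 41.4 and 35.8 CPM in the controls and 38.8 and 40.7 CPM in the mutants. Its log2 fold change was -0.02 ± 0.15 (SE; 95% interval -0.35 to 0.30; edgeR adjusted p = 0.942), and the sign turned positive with upper-quartile normalization (0.012).

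Salt absorption pairs an anion exchanger with the proton exchanger, so their ratio was taken in each library. Slc26a3 was 5.59, 4.22 and 6.01 times the Slc9a3 FPKM in the controls and 2.71 and 2.96 times in the mutants. The groups did not overlap (exact permutation test, two-sided p = 0.2, adjusted over 6 ratios p = 0.4). Slc26a3 over Slc26a6 FPKM was 8.64 to 11.1 in controls and 5.87 and 9.06 in mutants, which overlapped.

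Car4, a membrane-bound carbonic anhydrase, gave 0, 1 and 1 counts from controls 1 to 3, and 0 and 1 from mutants 4 and 6. Both groups were at or under a floor of 3 counts over the group, so no fold is given, and a difference was not detectable at this depth.

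**Figure D2:**
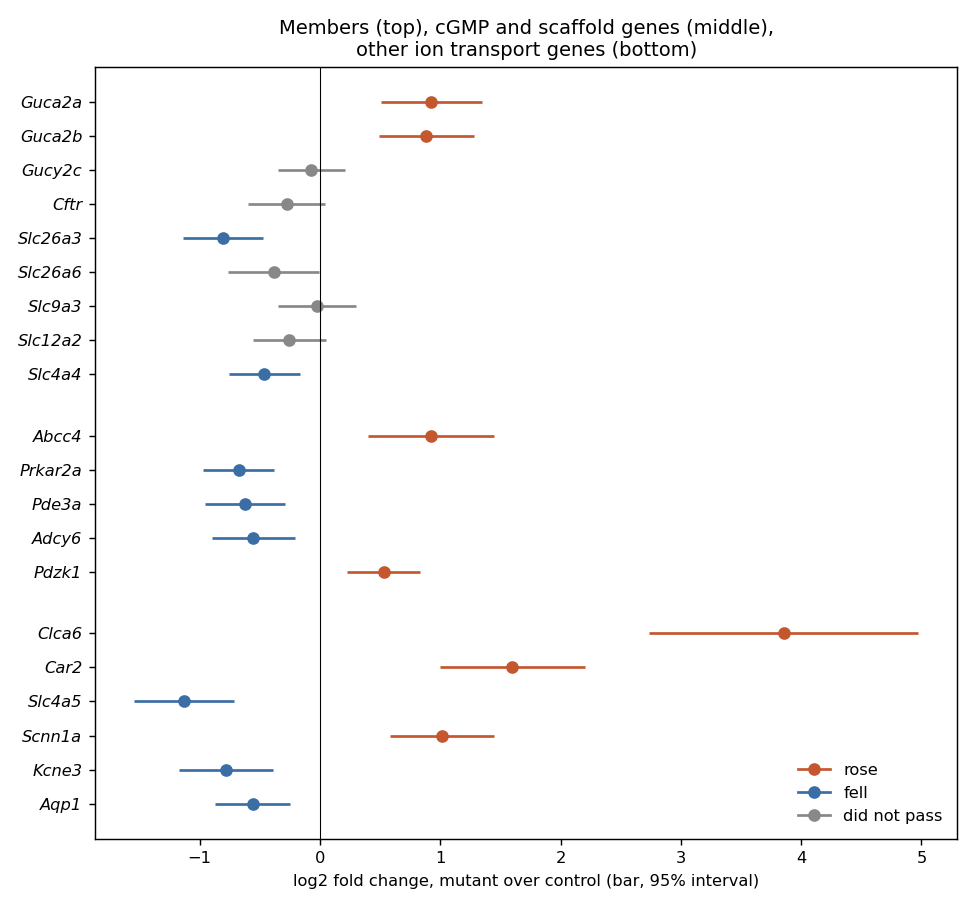
Log2 fold change, mutant over control (x axis), with its 95% interval for the 9 tested genes and for the genes of the other lists that passed. Colours give the edgeR call: Guca2a and Guca2b rose and Slc26a3 and Slc4a4 fell, at 0.93, 0.89, -0.80 and -0.46.

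On the deposited FPKM, the only scale here on which genes can be set against each other, uroguanylin was the most abundant transcript of the set in both groups. In controls Guca2b was at 301 ± 53.1 FPKM (SD, n = 3), followed by Guca2a at 93.9 ± 21.6 and Slc26a3 at 77.3 ± 13.6, whose ranges overlapped. Gucy2c at 57.3 ± 7.59 and Slc12a2 at 55.1 ± 12.2 FPKM overlapped each other, and Cftr followed at 31.9 ± 6.99. Slc4a4 at 18.0 ± 1.41 and Slc9a3 at 14.9 ± 3.28 FPKM overlapped, and Slc26a6 was at 7.88 ± 0.408. Car4 was last, at no more than 0.0284 FPKM in any library.

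In mutants the order changed at a few places. Guca2b was at 545 ± 34.3 FPKM (SD, n = 2) and Guca2a at 186 ± 22.5. Slc26a3 moved from the third to the fifth place, at 42.2 ± 11.3 FPKM, overlapping Slc12a2 at 43.1 ± 2.04. Gucy2c took the third place at 53.9 ± 2.88 FPKM. Slc9a3 at 14.8 ± 3.06 and Slc4a4 at 11.8 ± 2.15 overlapped, and Slc26a6 was again ninth at 5.69 ± 0.209.

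**Figure D3:**
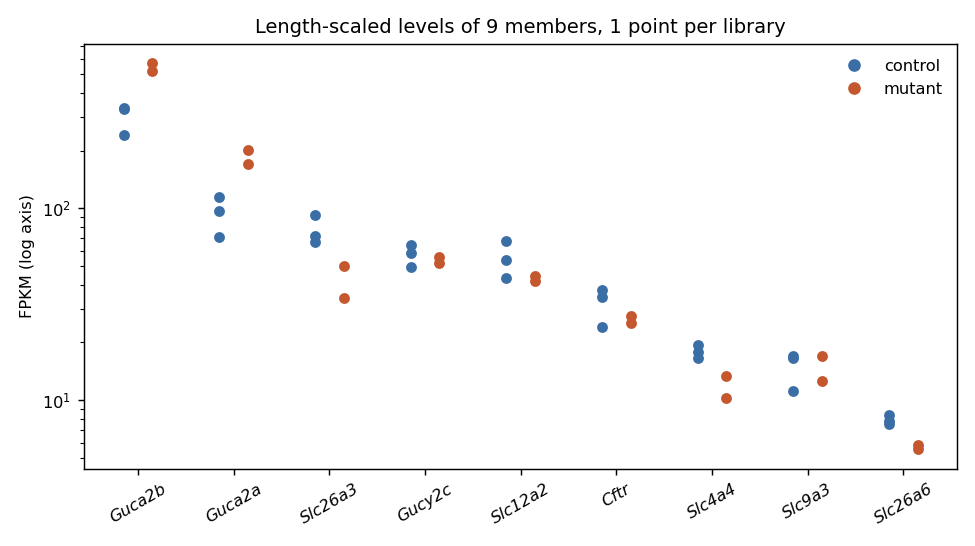
Deposited FPKM (y axis, log scale) of the 9 tested genes, ordered by control mean, with 1 point per library; blue, control; orange, mutant. Guca2b is highest in every library, at 240 to 334 FPKM in controls and 521 and 570 in mutants, and Slc26a6 is lowest.

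Some markers of absorptive enterocytes, the villus cells that carry several of these transporters, rose. Of 24 listed genes, all tested, 10 rose and 1 fell, beside 6.11% higher and 4.17% lower over all genes tested. At an unadjusted edgeR p under 0.05, 15 were higher and 1 lower, beside 25.6% of all genes in either direction. Both mutants lay above all controls for 16 and below them for 1, beside 21.7% and 21.8% of all genes tested. The median log2 fold change was 0.49, and the summed level was 36202 to 52845 CPM in controls and 63197 and 64484 CPM in mutants. None of the 24 was at 0. The highest on FPKM was Fabp2, with a control mean of 6056 ± 2487 CPM (SD, n = 3) against a mutant mean of 8911 ± 2518 CPM (SD, n = 2). Fabp2 did not pass (edgeR adjusted p = 0.209), and the groups overlapped. The fall was of Cps1, a mitochondrial enzyme of ammonia handling (log2 fold change -0.97, edgeR adjusted p = 0.00119). The 10 rises became 5 without mutant 4, 16 without control 2, and 4, 4 and 3 on FPKM with limma (pseudocount 1, pseudocount 0.1 and mean of at least 1), with 1 fall in each. Goblet cell markers gave 0 rises and 0 falls among 9 tested with edgeR (3 were lower at an unadjusted p under 0.05, and 1 fell with DESeq2, with no filter and without control 2), with sums of 1125 to 1724 CPM in controls and 1068 and 1179 CPM in mutants. The part of any cell type in the results on hormones and exchangers was not tested.

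Transcripts of cells outside the epithelium were also present. The calls below stand beside 6.11% higher and 4.17% lower over all genes tested. Tested were 14 mesenchymal and muscle, 11 endothelial, 10 immune, 7 enteric neuron and glia and 7 erythroid genes. The 14 mesenchymal and muscle markers summed to 1238 to 1342 CPM in controls and 1884 and 2041 CPM in mutants, with 7 rises. All 14 were higher at an unadjusted edgeR p under 0.05. Both mutants lay above all controls for all 14, beside 21.7% of all genes tested. The number of calls depended on single libraries: edgeR called 3 without control 1, and the calls were lost without mutant 4, which leaves 1 mutant. On FPKM limma called 1, 1 and 0 (10, 9 and 11 at an unadjusted p under 0.05). The 11 endothelial markers summed to 216 to 254 CPM and 281 and 304 CPM, with a rise of Plvap that was lost without control 1, mutant 4 or mutant 6 and on FPKM. The 11 found immune markers summed to 115 to 180 CPM and 284 and 302 CPM, with rises of Csf1r and Aif1, but the rises numbered 1 without control 1, control 3 or either mutant. The enteric neuron and glia list gave 26.1 to 34.8 CPM and 59.9 and 62.1 CPM, with rises of S100b and Uchl1, but the rises numbered 1 without control 1, control 3 or mutant 4, with a CPM of at least 5 and on FPKM. The erythroid list summed to 52.3 to 67.1 CPM and 70.3 and 70.4 CPM, with a fall of Alas2 that was lost on leaving out any library, with upper-quartile normalization and on FPKM.

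The other lists held 12 enteroendocrine, 14 progenitor and 12 proliferation genes, all tested. Their calls too stand beside 6.11% higher and 4.17% lower over all genes tested. The enteroendocrine list summed to 246 to 291 CPM in controls and 412 and 420 CPM in mutants, and the hormone or granule genes Sst, Sct, Cck and Chga rose. These 4 rises became 1 without mutant 4 and 2, 3 and 2 on FPKM. Falls, 0 in the test reported (2 were lower at an unadjusted p under 0.05), numbered 2 without mutant 6 and with no filter, and 1 without control 2 and with DESeq2. Progenitor markers summed to 1039 to 1144 CPM and 871 and 1220 CPM, with a rise of Cd44 and falls of Smoc2 and Prom1. The rise was lost without control 1 or mutant 4, and rises numbered 2 without mutant 6 and 3 with no filter. Falls numbered 1 without control 1, control 2 or mutant 4 and 0 without mutant 6 (2 at an unadjusted edgeR p under 0.05), and limma made 0 calls on FPKM (1 higher and 2 lower at an unadjusted p under 0.05). Proliferation genes, bound to the choice of areas by Ki67, summed to 1654 to 2082 CPM and 1152 and 1163 CPM, with 8 falls and a rise of Mcm2. Leaving out either mutant reduced the falls to 4, the FPKM settings gave 4, 5 and 4, and the rise was lost without control 2, control 3 or either mutant and on FPKM. The highest of each list on FPKM were Lgals4 (epithelium), Spink4 (goblet), Cck (enteroendocrine), Ccnd2 (progenitor), Mki67 (proliferation), Acta2 (mesenchyme and muscle), Pecam1 (endothelium), Tyrobp (immune), S100b (neurons and glia) and Hba-a1 (erythroid). No listed marker found in the table was at 0 in all libraries.

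**Figure D4:**
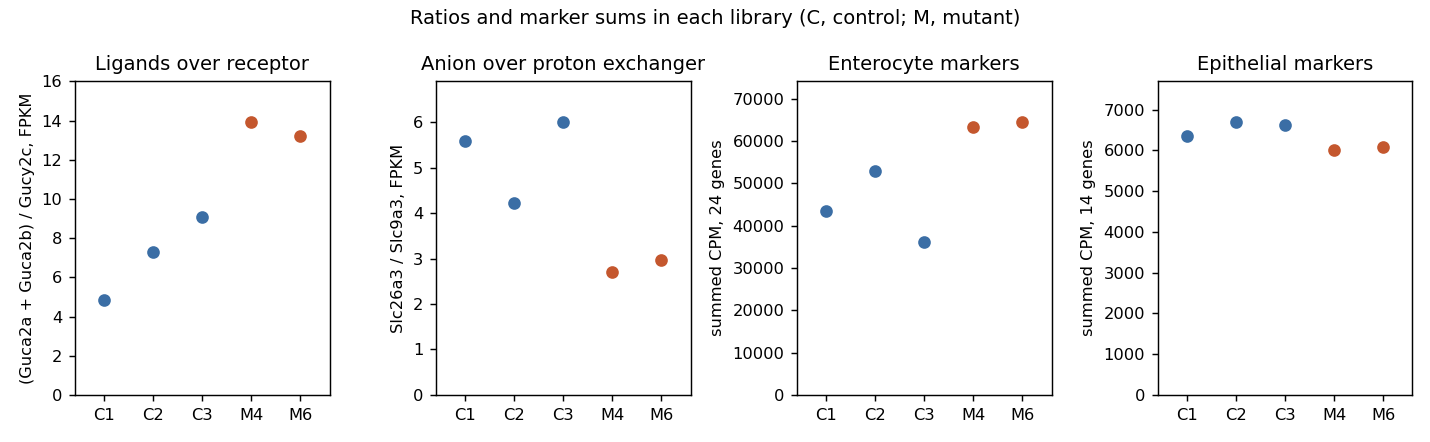
Ratios of deposited FPKM (both left panels) and summed CPM of marker lists (both right panels) in each library, y axes from 0; C, control; M, mutant. The ligand to receptor ratio is 4.82 to 9.09 in controls and 13.2 and 13.9 in mutants. The Slc26a3 to Slc9a3 ratio is lower in mutants. The sum over 24 enterocyte markers is higher in mutants: 10 of them rose, 13 did not pass and 1 fell. The sum over 14 epithelial markers is lower in mutants.

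Genes of cyclic nucleotide signalling and scaffolds that anchor the transporters were taken as a list of 21, all tested, named the cyclic GMP and scaffold list below. It also holds Adcy6, Adcy9, Prkaca and Prkar2a, which belong to cyclic AMP signalling. Of the 21, 2 rose, 3 fell and 16 did not pass, beside 6.11% higher and 4.17% lower over all genes tested. The median log2 fold change was 0.26, beside -0.0072 over all genes tested. Pdzk1, a PDZ scaffold of the brush border that binds NHE3 and CFTR, was 61.3, 77.7 and 61.7 CPM in the controls and 94.7 and 98.6 CPM in the mutants (log2 fold change 0.53 ± 0.14, SE; edgeR adjusted p = 0.0298). Abcc4, which exports cyclic nucleotides, was 6.06 to 9.35 CPM in the controls and 15.4 and 13.5 CPM in the mutants (0.92 ± 0.24; edgeR adjusted p = 0.0277). Mutants lay above all controls for both. Neither passed without either mutant, without control 1 or control 3, or on FPKM.

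The falls were of Prkar2a, Pde3a and Adcy6. Prkar2a, a regulatory subunit of protein kinase A, was 168 to 202 CPM in the controls and 124 and 115 CPM in the mutants (-0.67 ± 0.14; edgeR adjusted p = 0.00669). Pde3a, a phosphodiesterase inhibited by cyclic GMP, was 104 to 145 CPM and 76.8 and 82.8 CPM (-0.62 ± 0.15; edgeR adjusted p = 0.0193). Adcy6, an adenylate cyclase, was 73.2 to 102 CPM and 64.0 and 54.1 CPM (-0.56 ± 0.16; edgeR adjusted p = 0.042). None of these passed without mutant 4, without mutant 6 or on FPKM, Pde3a and Adcy6 were also lost without control 1, and Adcy6 with upper-quartile normalization. Ezr, the membrane linker ezrin and the most abundant of the list on FPKM, was 522 to 624 CPM in controls and 728 and 766 CPM in mutants (edgeR adjusted p = 0.125).

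A further list held 44 genes of intestinal ion and water transport, of which 36 were tested. Here 3 rose, 3 fell and 30 did not pass, beside 6.11% higher and 4.17% lower over all genes tested. The median log2 fold change was 0.04. Car2, the cytosolic carbonic anhydrase, was 3.96, 4.44 and 2.82 CPM in the controls and 11.1 and 11.7 CPM in the mutants (1.60 ± 0.28, SE; edgeR adjusted p = 0.00262), and it passed in all 14 other settings. Clca6, of the calcium-activated chloride channel regulator family, had 13, 14 and 9 counts in controls and 194 and 55 in mutants, or 0.634 to 0.829 CPM and 17.2 and 4.24 CPM (3.85 ± 0.52; edgeR adjusted p = 0.000392). Without mutant 4 its log2 fold change was 2.53, and it passed in the 13 settings in which it was tested. Scnn1a, the alpha subunit of the epithelial sodium channel, was 9.22 to 12.5 CPM in controls and 21.1 and 22.5 CPM in mutants (1.02 ± 0.20; edgeR adjusted p = 0.00599). Without mutant 6 its log2 fold change was 0.97 and no longer passed, and it was also lost in the 3 FPKM settings (limma adjusted p = 0.0887 to 0.101). Scnn1b and Scnn1g, for other subunits of that channel, had 0 to 5 and 0 to 8 counts per library and were not tested.

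Slc4a5, Kcne3 and Aqp1 fell. Slc4a5, a sodium bicarbonate cotransporter of the same family as Slc4a4, was 27.7 to 40.1 CPM in controls and 14.95 and 16.2 CPM in mutants (-1.13 ± 0.19; edgeR adjusted p = 0.00225). Kcne3, the potassium channel subunit that supports chloride secretion, was 35.6 to 49.5 CPM and 22.4 and 28.1 CPM (-0.78 ± 0.18; edgeR adjusted p = 0.0143). Aqp1, a water channel, also of endothelium, was 54.9 to 62.8 CPM and 42.5 and 37.3 CPM (-0.56 ± 0.14; edgeR adjusted p = 0.0251). Kcne3 was lost without control 1 or mutant 4, and Aqp1 without control 1 or either mutant, and both were lost in the 3 FPKM settings. Slc4a5 was lost on FPKM with pseudocount 1 (limma adjusted p = 0.0529).

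The genes whose profile over the 5 libraries was closest to that of 3 members were found by the root mean square difference of mean-centred log2 CPM, among 10010 genes whose average log2 CPM was 3 or more. For Guca2a they were Dnajb9 (0.0948), Id2 (0.0977) and 2210403K04Rik (0.0998), while Guca2b was closer still, at 0.0684. For Gucy2c they were A230046K03Rik (0.0140), Usf2 (0.0214) and Mbtps1 (0.0214), and its nearest member was Slc9a3 (0.0725). For Cftr they were Bivm (0.0324), Siae (0.0369) and Narg2 (0.0382), and its nearest member was Slc12a2 (0.0827). Slc26a3 had no close partner in the set: its nearest member, Slc26a6, was at 0.258. These distances describe 5 libraries of 2 groups, and genes are not independent replicates.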

How the data were processed

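The authors deposited raw read counts and FPKM values (per transcript length and library size) by RefSeq transcript, 28644 rows each, per the file headers. The submitters' processing notes name mm9 and edgeR; the aligner and counter were not given in the sources used here. Per the labels' protocols, cDNA was amplified from 2.3 to 33.3 ng of RNA and read as 100 bp single reads; amplified reads are not independent molecules.

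The deposited counts of 3 controls and 2 mutants entered edgeR 4.0.16 (R 4.3.3; quasi-likelihood F-test, default filter, TMM, no covariate, 3 residual degrees of freedom). Adjustment was by Benjamini-Hochberg over 19353 rows; a call means an adjusted p under 0.05. The standard error is the absolute log2 fold change over the square root of F. Intervals are 95%. A gene with several rows enters the library total behind CPM once per row. In 41 rows spreadsheet dates were replaced by symbols through the RefSeq table. No 2 libraries agreed within sampling noise (chi-square per gene at least 9.94). The procedure was tested on simulated counts, and the outcome is not given here.

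Alternatives were RLE and upper-quartile normalization, no filter, CPM of at least 5 in 2 libraries, DESeq2 1.42.0, 1 row per gene, limma 3.58.1 on log2(FPKM + 1), on log2(FPKM + 0.1) and on log2(FPKM + 1) with mean FPKM of at least 1, and leaving out each library. The log2(FPKM + pseudocount) scale understates changes of low genes. The members, gene lists, ratios and tests were chosen with earlier results of these data known. The rule for named genes takes all members, genes of the cyclic GMP and ion transport lists that passed (at most 8 a list), the highest of every list on FPKM, the 3 profiles nearest Guca2a, Gucy2c and Cftr, and Dnmt1, Mki67, Xist and Y-linked genes as checks; 1 gene it names is not reported here. Marker genes named for their calls were chosen after their values were seen.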

Additional observations from a re-analysis of the deposited data

How the results depend on the processing

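Among the 10 genes, 2 rose and 2 fell in the test reported. On the deposited FPKM, 1 rose with pseudocount 1, with pseudocount 0.1 and with a mean of at least 1, and 1, 1 and 0 fell (limma; 2 were lower at an unadjusted p under 0.05 in each). The falls numbered 1 with RLE, with upper-quartile normalization, with a CPM of at least 5 in 2 libraries and with 1 row per gene. Leaving out each library gave 0 to 2 rises and 0 to 2 falls. Guca2a passed in 13 of 14 settings, Slc26a3 in 12, Guca2b in 10 and Slc4a4 in 3, each with its sign kept in all 14. Gucy2c, Cftr, Slc26a6 and Slc12a2 passed in 0 and kept their sign. The log2 fold change of Slc9a3, -0.02 as reported, turned positive at 0.012 with upper-quartile normalization, 0.042 without control 1, 0.0080 without control 2 and 0.0087 without mutant 4, and was -0.10 without control 3.

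In the cyclic GMP and scaffold list the 2 rises became 4 with upper-quartile normalization, with no filter and with DESeq2, and 0 rises and 0 falls were left in each FPKM setting (limma; 3 higher and 3 lower at an unadjusted p under 0.05). Leaving out each library gave 0 to 2 rises and 0 to 4 falls. In the ion transport list 5 rose with no filter, and 0, 1 and 1 fell in the FPKM settings (pseudocount 1, pseudocount 0.1, mean of at least 1; limma; 5 were lower at an unadjusted p under 0.05 in each). Leaving out libraries gave 2 to 4 rises and 1 to 4 falls. Over all genes 891 rose and 608 fell. In the FPKM settings 335, 341 and 258 rose and 131, 165 and 131 fell, 935 fell with no filter, and leaving out libraries gave 408 to 1057 rises and 170 to 645 falls. The cause of these shifts was not tested. Without a mutant the remaining one is assumed to vary like the controls. No paired analysis was possible because controls and mutants share no replicate number. Low counts left Car4 (0 or 1 per library) and 8 genes of the ion transport list (0 to 11 per library) untested, and the fold of Clca6 rests on 9 to 14 counts per control.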
